A study of Mus musculus with 2 samples.

Results

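Heat shock protein and J-domain genes were examined for open chromatin at their ends in mouse hematopoietic stem cells. The members were the protein-coding genes of the mouse RefSeq annotation whose symbol begins with Dnaja, Dnajb, Dnajc, Hspa, Hspb, Hspd, Hspe, Hsph or Hsp90, 74 of 21887 protein-coding genes in all. The symbol alone decided membership, so Hspbp1 and Hspbap1 were included although they encode partners of heat shock proteins. The cells were wild-type C57BL/6J bone marrow cells with the CD48-CD150+LSK surface phenotype, about 1000 per library. They carried either an MSCV retrovirus with H1C, a linker histone gene also named H1f2 and overexpressed per the labels (the H1C library), or the empty MSCV retrovirus (the control library). Both groups had thus been transduced, and each held 1 library, so no difference reported here has a replicate check and no p-value is given. The sources used here did not give the number of mice or the share of cells that carried a vector.

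HSP70 proteins bind and release unfolded protein stretches in a cycle driven by ATP. J-domain proteins deliver clients to HSP70 and speed up ATP hydrolysis, and HSP110 proteins exchange the nucleotide so that the client is let go. HSP90 acts later, on kinases, receptors and other nearly folded clients, while HSP60 and HSP10 form a folding chamber in mitochondria and small heat shock proteins hold damaged proteins in solution. Cytosolic stress genes of this kind are known targets of the heat shock factor HSF1, which binds GAA letters repeated in alternating orientation. The chaperones of the endoplasmic reticulum (ER) are known targets of the unfolded protein response, which acts through the ER stress element, a CCAAT box spaced from CCACG. Hematopoietic stem cells are known for slow protein synthesis and for a sensitivity to misfolded protein.

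The assay was ATAC-seq, where a transposase places sequencing adapters into open DNA and so marks accessible chromatin. A gene-end region was an accessible region from a library's own deposited list that lay within 1000 bp of either end of a gene. Each region carried the authors' fold (summit over local background), −log10 p, −log10 q and summit position. From fold and −log10 p the pileup was solved, the number of reads or fragments stacked at the summit. A gene with a region in both lists is called kept, and for genes with several regions the one with the highest −log10 p was used. In bulk cells a low pileup can come from fewer cells with an open site or from less open DNA in each cell, and these cannot be told apart.

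At each of the 8 kept genes printed here, letters that match known promoter elements lay inside the accessible region of both libraries. The 8 were picked for printing, and other kept genes differed. A heat shock element pair lay outside the regions of both libraries at Hspb6 and Dnajc27, and outside any H1C region at Dnajb4. The RefSeq promoter table (build GRCm38.p6, 250 bases before to 50 after each listed start) held 77 promoters for 60 of the 74 genes. The 5 promoters below carry the letters that HSF1 is known to bind, GAANNTTC or TTCNNGAA, and each of the 5 genes was kept. They are Hspe1 (chr1:55087898-55088197, plus strand), Hsph1 (chr5:149636287-149636586, minus strand), Dnajb6 (chr5:29735729-29736028, plus strand), Hspa1a (chr17:34972107-34972406, minus strand) and Hspa1b (chr17:34959189-34959488, minus strand). Each is printed 5′ to 3′ on the strand of its gene, with every match in capitals.
Hspe1: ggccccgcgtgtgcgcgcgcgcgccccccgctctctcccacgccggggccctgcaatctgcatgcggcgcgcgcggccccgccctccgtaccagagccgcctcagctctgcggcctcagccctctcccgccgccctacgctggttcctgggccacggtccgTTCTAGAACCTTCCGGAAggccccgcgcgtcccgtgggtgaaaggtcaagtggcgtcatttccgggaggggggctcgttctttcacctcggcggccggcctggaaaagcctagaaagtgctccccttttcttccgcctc
Hsph1: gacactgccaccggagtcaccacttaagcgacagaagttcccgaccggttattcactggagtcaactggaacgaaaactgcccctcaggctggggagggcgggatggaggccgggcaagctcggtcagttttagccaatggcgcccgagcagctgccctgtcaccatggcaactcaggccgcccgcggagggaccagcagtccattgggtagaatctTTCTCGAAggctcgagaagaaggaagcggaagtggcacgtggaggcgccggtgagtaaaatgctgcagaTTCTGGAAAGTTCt
Dnajb6: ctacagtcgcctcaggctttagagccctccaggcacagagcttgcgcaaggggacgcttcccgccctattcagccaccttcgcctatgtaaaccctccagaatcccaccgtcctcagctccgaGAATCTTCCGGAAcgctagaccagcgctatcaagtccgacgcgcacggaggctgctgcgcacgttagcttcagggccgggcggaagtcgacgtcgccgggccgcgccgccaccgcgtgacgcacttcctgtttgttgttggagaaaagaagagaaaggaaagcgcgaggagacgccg
Hspa1a: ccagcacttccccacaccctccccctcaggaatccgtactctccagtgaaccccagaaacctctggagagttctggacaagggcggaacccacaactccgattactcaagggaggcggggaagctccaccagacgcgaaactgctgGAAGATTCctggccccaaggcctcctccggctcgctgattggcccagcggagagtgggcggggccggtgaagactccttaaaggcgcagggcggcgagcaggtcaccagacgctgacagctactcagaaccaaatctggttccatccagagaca
Hspa1b: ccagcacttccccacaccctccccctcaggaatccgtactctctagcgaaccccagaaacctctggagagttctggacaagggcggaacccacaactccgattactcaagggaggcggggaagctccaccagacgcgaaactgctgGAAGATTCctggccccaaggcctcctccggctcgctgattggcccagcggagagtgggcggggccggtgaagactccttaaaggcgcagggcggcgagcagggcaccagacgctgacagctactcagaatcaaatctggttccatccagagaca

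Hspe1 (HSP10), Hsph1 (an HSP110 protein) and Dnajb6 (a J-domain protein that holds back aggregates) had the units 3 or more in a row. In Hspe1 the run began at position -89 from the listed start and lay inside the region of both libraries, whose summits were at -79 in H1C and -70 in control. Hspd1 (HSP60) is read from the same stretch in the other direction, and of its 2 listed promoters the one with the start at 55087932 shared 285 bases with that of Hspe1, the run included. The other, with the start at the annotated gene end, 55088243, shared 4 bases and did not hold the run. In Dnajb6 the run began at -127, and in Hsph1 it began at 36, after the start, with a single pair at -33.

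The promoters of Hspa1a and Hspa1b, the neighbouring genes of the stress-inducible HSP70, were identical at 296 of 300 positions (98.7%). Counted from 1 at the 5′ end of the printed promoters, with the base of Hspa1a first, they differed at C44T, T47C, T249G and C276T. Both held GAAGATTC at position -104 from the start. Reads from sequence this alike cannot always be placed, and the sources used here do not say how such reads were treated. The values of both genes are therefore uncertain.

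The ER stress element, searched on either strand as CCAAT and CCACG with 9 bases of any kind between them, was present in 3 members, all of them kept and all coding for ER proteins. They are Hspa5 (BiP, the HSP70 of the ER; chr2:34771840-34772139, plus strand), Hsp90b1 (GRP94, the HSP90 of the ER; chr10:86705395-86705694, minus strand) and Dnajc3 (a J-domain partner of BiP, also known as P58IPK; chr14:118937682-118937981, plus strand). Capitals mark the whole element, which in the second match of Hsp90b1 lies on the opposite strand.
Hspa5: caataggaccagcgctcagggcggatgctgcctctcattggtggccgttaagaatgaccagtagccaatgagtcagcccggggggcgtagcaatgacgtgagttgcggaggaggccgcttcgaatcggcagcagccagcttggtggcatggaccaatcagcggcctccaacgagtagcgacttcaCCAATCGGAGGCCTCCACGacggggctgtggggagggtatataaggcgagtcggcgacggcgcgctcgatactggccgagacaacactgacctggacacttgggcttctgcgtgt
Hsp90b1: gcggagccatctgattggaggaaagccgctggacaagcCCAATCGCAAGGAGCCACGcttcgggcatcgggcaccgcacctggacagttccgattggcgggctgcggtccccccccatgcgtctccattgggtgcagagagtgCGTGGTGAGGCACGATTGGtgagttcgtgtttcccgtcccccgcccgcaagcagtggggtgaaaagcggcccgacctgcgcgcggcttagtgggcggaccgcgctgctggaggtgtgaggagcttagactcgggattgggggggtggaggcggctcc
Dnajc3: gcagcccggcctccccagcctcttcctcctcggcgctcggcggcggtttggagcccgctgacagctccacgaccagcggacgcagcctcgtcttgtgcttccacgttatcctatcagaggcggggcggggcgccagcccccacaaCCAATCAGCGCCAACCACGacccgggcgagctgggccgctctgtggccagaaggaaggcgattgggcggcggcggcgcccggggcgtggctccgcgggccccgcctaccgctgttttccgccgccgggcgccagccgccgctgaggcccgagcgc

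For contrast, Dnajc10 had an accessible region in control alone and Hspb1 had none in either library. Both promoters hold the pair letters, in capitals, which in Dnajc10 start at position -182, outside its control region of -109 to 384. Dnajc10 (chr2:80315216-80315515, plus strand) encodes an ER disulfide reductase with a J-domain, and Hspb1 (chr5:135887669-135887968, plus strand) encodes the small heat shock protein HSP27.
Dnajc10: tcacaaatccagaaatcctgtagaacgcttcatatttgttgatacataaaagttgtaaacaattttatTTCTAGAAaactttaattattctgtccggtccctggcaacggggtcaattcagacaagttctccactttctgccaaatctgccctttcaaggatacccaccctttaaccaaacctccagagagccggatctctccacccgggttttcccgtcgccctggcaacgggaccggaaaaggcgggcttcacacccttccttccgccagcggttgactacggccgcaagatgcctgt
Hspb1: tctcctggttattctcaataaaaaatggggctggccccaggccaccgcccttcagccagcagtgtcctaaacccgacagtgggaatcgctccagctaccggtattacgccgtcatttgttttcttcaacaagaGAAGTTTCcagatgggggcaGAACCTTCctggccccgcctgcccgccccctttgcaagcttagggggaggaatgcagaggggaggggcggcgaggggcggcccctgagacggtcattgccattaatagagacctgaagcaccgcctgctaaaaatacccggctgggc

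Pair letters occurred in kept genes, in control-only genes and in genes with no region. A pair, GAANNTTC or TTCNNGAA, each of which reads the same on both strands, was found in 18 of 77 member promoters (23.4%) and in 4946 of 32851 promoters of the whole table (15.1%). By gene, 10 of 36 kept genes, 1 of 10 control-only genes and 5 of 14 genes with no region had a promoter with a pair. A run of 3 alternating units, in which GAANNTTC and TTCNNGAA overlap in a shared unit on either strand, was found in 6 member promoters (7.79%) of Dnajb6, Hspd1, Hspe1 and Hsph1, against 0.603% of all promoters. These 6 promoters overlap in part and rest on 3 distinct stretches, so the member share counts the same letters more than once. The ER stress element was found in 3 of 77 (3.90%), against 0.119% of all. The CCAAT box on either strand, part of the ER stress element, was found in 39.0% of member promoters and 37.4% of all, and TATAAA on either strand in 5.19% and 13.6%. A match describes letters and is not evidence of a bound site, and the base composition of the promoters was not matched.

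**Figure D1:**
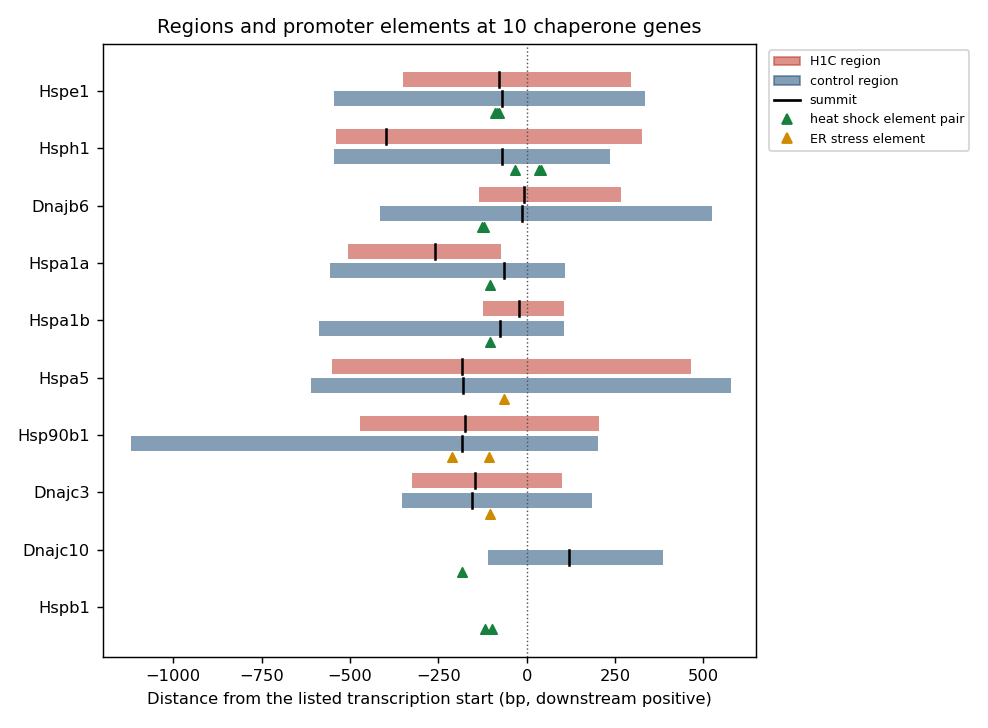
Accessible regions of H1C (red, upper bar) and control (blue, lower bar) at the 10 genes whose promoters are printed, against distance from the listed start in bp. The summit is a black line, and triangles mark letters that match promoter elements. At Hspa5, Hsp90b1 and Dnajc3 the ER stress elements lie inside the region of both libraries, Dnajc10 has a control region alone, and Hspb1 has neither.

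The whole lists differed in length, with 13156 regions in H1C and 32005 in control. The genome background, in proportion to depth, was 4.40 in H1C and 3.99 in control, and the lowest pileup in a list was 14 in H1C and 12 in control. Among stem cell marker genes, Mllt3 was kept, Kit, Slamf1, Ly6a, Hlf and Meis1 were in control only, and Procr, Mecom, Gata2, Hoxa9 and Tek had none in either list. Markers of other cells had a gene-end region in control at 2 of 6 myeloid, 1 of 6 erythroid and megakaryocyte, 4 of 6 lymphoid, 0 of 3 mast cell and 2 of 6 endothelial and stromal genes, and Cd79a and Ms4a1, both B cell genes, were kept. Among all protein-coding genes 33.6% had a gene-end region in H1C and 46.9% in control. Control pileups of the 9 markers of other cells with a region ran from 16 to 63. Whether other cells contributed to the chaperone regions was not tested.

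Most members were accessible at a gene end in both libraries. Of the 74 genes, 44 had a region in both lists, 11 in control only, 0 in H1C only and 19 in neither. Of all protein-coding genes, 33.6% had such a region in H1C, 46.9% had it in control and 52.8% had none, and 0.542% of genes without a control region had one in H1C. The members were thus more often accessible than protein-coding genes at large, with 74.3% having a control region and 25.7% none. Of the 55 members with a control region 44 were kept (80.0%, exact Clopper-Pearson 95% interval 67.0 to 89.6), where 71.0% of all such genes were kept and 29.0% were control only. The 44 kept genes rest on 42 distinct H1C regions and the 55 control genes on 53 distinct control regions, because Hspd1 and Hspe1 share a region and so do Hspa1a and Hspa1l.

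The kept share of the members was close to that of other genes with equally strong control regions. Genes with a control region were placed in 5 equal-sized bins of its −log10 p, and 32 of 55 members (58.2%) fell in the top pair of bins, against 39.9% of other genes. From the lowest bin (−log10 p of 3.62 to 13.5) to the highest (45.9 to 114), 0 of 5, 7 of 12, 5 of 6, 13 of 13 and 19 of 19 members were kept. The share of other genes that was control only in those bins was 82.7%, 46.3%, 12.5%, 3.38% and 0.442%. Weighted by the members in each bin, other genes were kept at 80.1%, or 44.0 genes out of 55, a difference of -0.0713 percentage points from the members.

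**Figure D2:**
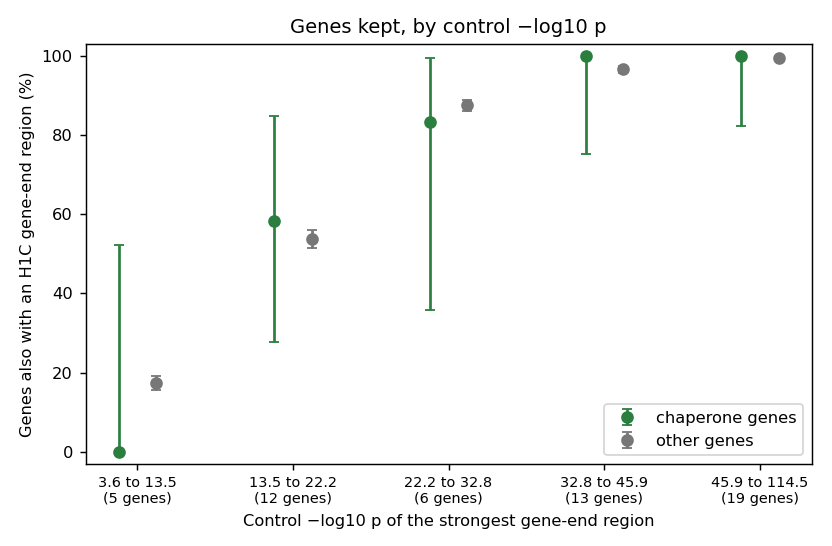
Share of genes kept (percent of those with a region in control, vertical axis) in 5 bins of control −log10 p, for chaperone genes (green) and other genes (grey), with exact Clopper-Pearson 95% intervals that cover counting error only. The green intervals are wide and include the grey value in each bin, and all 32 members of the top pair of bins were kept.

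Families differed in how many genes they kept. All 17 genes of the Hspa, Hsph, Hsp90, Hspd and Hspe families with a control region were kept, where other genes in the same bins would give 14.9. Their median control −log10 p was 50.8, against 27.1 for other genes. Hspd1 and Hspe1 share a region, as do Hspa1a and Hspa1l, so these regions are counted more than once. With the Hspb group included, 20 of 22 Hsp genes were kept (90.9%, interval 70.8 to 98.9). Other genes in the same bins were kept at 84.5%, or 18.6 genes, a share inside that interval. The 45 Dnaja, Dnajb and Dnajc genes had 33 with a control region, of which 24 were kept (72.7%, interval 54.5 to 86.7), where other genes in the same bins were kept at 77.1%, or 25.5 genes. The Dnajc family, the most varied in domain make-up, had 13 of 28 genes in both lists, 7 in control only and 8 in neither. The Hspb group had 3 of 10 in both, 2 in control only and 5 in neither. The counts per family are small, and the bin-matched shares lie inside the intervals of the J-domain share and of the 100% share of the 17 genes (80.5 to 100).

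The HSP70 genes held some of the strongest regions in the set. Hspa8, the constitutive cytosolic HSP70, had a pileup of 64 in H1C and 119 in control, the highest control pileup of any member. Hspa14, a ribosome-associated HSP70 whose region also lies at the end of Cdnf, had 70 in H1C and 104 in control. Its control −log10 p of 74.3 was at or above that of 98.5% of genes with a control region. At Hspa8 and Hspa14 the H1C summit was the lower. Hspa5 had 77 in H1C, the highest H1C pileup of any member, and 101 in control, a log2 ratio of -0.53 after scaling by the ratio of genome backgrounds (exact conditional binomial 95% interval -0.98 to -0.09). The ratio of Hspa8 was -1.04 (-1.50 to -0.59).

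Hspa2, an HSP70 known from spermatogenesis, had the lowest ratio of its family at -1.23 (-1.80 to -0.68), with pileups of 41 in H1C and 87 in control. Hspa12a, a distant relative of HSP70, had the highest ratio of all members at -0.44 (-1.25 to 0.35), with 26 in H1C and 32 in control. Its interval includes 0, so the difference is within counting error. Hspa9, the mitochondrial HSP70, had 52 in H1C and 83 in control. Hspa4, an HSP110-type exchange factor, had 47 in H1C and 78 in control, and Hspa13, an HSP70 of the ER, had 40 in H1C and 67 in control.

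The stress-inducible pair had lower pileups than the constitutive gene Hspa8, but the values of the pair are uncertain. Reads from their near-identical promoters cannot always be placed, and whether this lowered the pileups was not tested. Hspa1a and its neighbour Hspa1l, a testis-rich HSP70, shared a region with a pileup of 19 in H1C and 34 in control. Hspa1b had 22 in H1C and 30 in control, with an interval that includes 0 (-1.45 to 0.25). At Hspa1a the H1C region ended at position -73 from the listed start, with its summit at -260, while the control region ran past the start to position 108, with its summit at -64. Of the remaining Hspa genes, Hspa4l (an HSP110-type gene) and Hspa12b had a region in neither list.

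The 3 Hsp90 genes, Hsph1, Hspd1 and Hspe1 were all kept. Hsp90b1 had a pileup of 66 in H1C and 107 in control, Hsp90aa1 (the inducible cytosolic form) 45 in H1C and 82 in control, and Hsp90ab1 (the constitutive form) 50 in H1C and 66 in control. Their log2 ratios were -0.84, -1.01 and -0.54, and the interval of Hsp90ab1 reached 0.01. At Hsp90ab1 the control region of 1056 bp was matched in H1C by a region of 290 bp and a second of 215 bp with a pileup of 30. A second control region at Hsp90ab1, of 237 bp with a pileup of 47, had no H1C region there. Hsph1 had 49 in H1C and 88 in control, and its summit moved from that of control by more than 200 bp, lying at position -397 from the listed start in H1C and at -70 in control. The region shared by Hspd1 and Hspe1 had 49 in H1C and 77 in control, a ratio of -0.79 (-1.34 to -0.26).

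**Figure D3:**
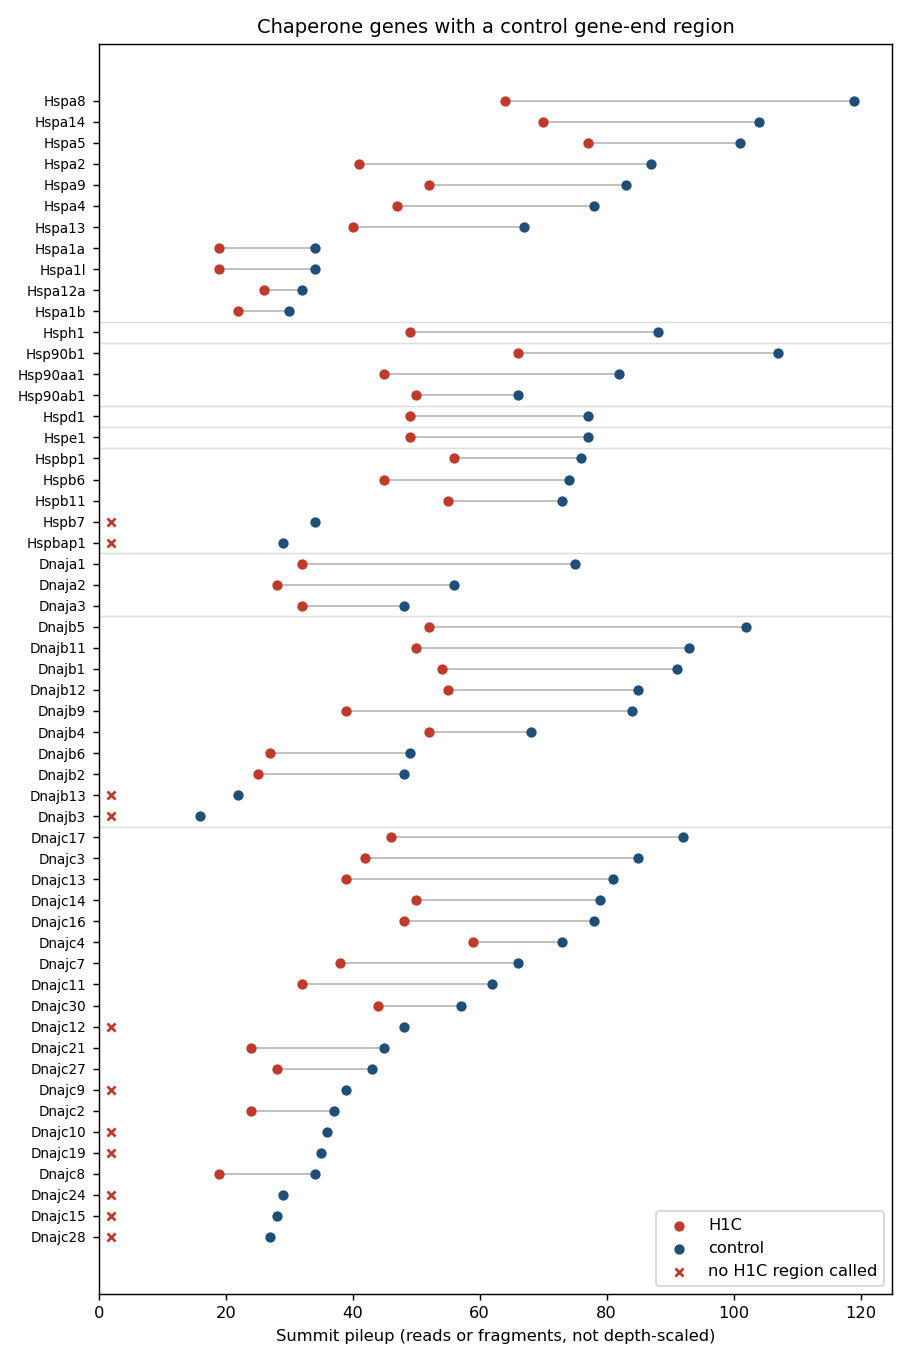
Summit pileup (reads or fragments, before depth scaling) in H1C (red) and control (blue) for the 55 members with a control gene-end region, grouped by family and ordered by control pileup. Crosses near 0 mark the 11 genes with no H1C region called and are not measured values. The H1C point lies left of the control point at all 44 kept genes.

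Of the 10 genes of the Hspb group, 3 were kept. Hspb6 (HSP20) was kept with a pileup of 45 in H1C and 74 in control, in a region that also lies at the end of Proser3. Hspb11, which encodes the intraflagellar transport protein IFT25, had 55 in H1C and 73 in control, and Hspbp1, an exchange factor for HSP70, had 56 in H1C and 76 in control. Hspb7 (control pileup 34, past the far end of the gene) and Hspbap1 (control pileup 29, in a region at the end of Slc49a4) were in control only. Hspb1, Hspb2, Hspb3, Hspb8 and Hspb9 had no region in either list.

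The Dnaja and Dnajb genes, the closest relatives of the bacterial DnaJ co-chaperone, carried several of the larger losses. Dnaja1, a cytosolic partner of HSP70, had a pileup of 32 in H1C and 75 in control, the lowest ratio of any member at -1.37 (-2.02 to -0.76), in a region that also lies at the end of Aptx. Dnaja2, a second cytosolic partner, had 28 in H1C and 56 in control (-1.14). Dnaja3, a mitochondrial co-chaperone, had 32 in H1C and 48 in control, the highest ratio of its family at -0.73 (-1.42 to -0.05). Dnaja4 had no region in either list.

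Dnajb1, the main stress-inducible HSP40 of the cytosol, had a pileup of 54 in H1C and 91 in control (ratio -0.89, -1.41 to -0.39). Dnajb5 had the strongest control region of its family, with 52 in H1C and 102 in control. Dnajb9 and Dnajb11, J-domain partners of BiP in the ER, had 39 in H1C and 84 in control, and 50 in H1C and 93 in control. The ratio of Dnajb9 was -1.25 (-1.84 to -0.68), the lowest of the Dnajb family. Dnajb4 had the highest at -0.53 (-1.08 to 0.01), with 52 in H1C and 68 in control, and its region also lies at the end of Fubp1.

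Weaker Dnajb regions were kept as well. Dnajb6 had 27 in H1C and 49 in control, and Dnajb2, a neuronal co-chaperone that binds ubiquitin, had 25 in H1C and 48 in control. Dnajb12, an ER membrane protein, had its strongest region past the far end of the gene, with 55 in H1C and 85 in control. At its start the H1C list held regions with pileups of 30 and 29 where control held a single region with 56. Dnajb13 and Dnajb3, both known from testis, were in control only with the weakest regions of the set, of 22 and 16. The region of Dnajb13 lay past the far end of the gene, with its summit 12150 bp from the listed start. Dnajb7, Dnajb8 and Dnajb14 had no region.

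The Dnajc genes ranged from strong regions kept in both lists to regions near the calling limit. Dnajc17, which has a role in splicing, had a pileup of 46 in H1C and 92 in control. Dnajc3 had 42 in H1C and 85 in control (ratio -1.16, -1.73 to -0.61). Dnajc13, an endosomal protein also named RME-8, had 39 in H1C and 81 in control, the lowest ratio of its family at -1.20 (-1.79 to -0.63). In all 3 the H1C pileup was at most 46 and the control pileup at least 81. Dnajc4 had the highest ratio of the family at -0.45 (-0.97 to 0.07), with 59 in H1C and 73 in control, and its region also lies at the end of Nudt22. Dnajc7, which binds both HSP70 and HSP90, had 38 in H1C and 66 in control.

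The other kept Dnajc genes lay between these. Dnajc14 had 50 in H1C and 79 in control, Dnajc16 had 48 in H1C and 78 in control, and Dnajc11, a mitochondrial inner-membrane organiser, had 32 in H1C and 62 in control. Dnajc30, a mitochondrial protein, had 44 in H1C and 57 in control, with an interval that includes 0. Dnajc21, a ribosome assembly factor, had 24 in H1C and 45 in control, and Dnajc2, the ribosome-bound partner of Hspa14, had 24 in H1C and 37 in control. Dnajc27 had 28 in H1C and 43 in control, and Dnajc8, a splicing protein, had 19 in H1C and 34 in control, with the lowest control −log10 p of any kept member.

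Genes that were accessible in control only had weak control regions. Among members their median control pileup was 29 (range 16 to 48) and their median −log10 p 14.3. The kept members had a median control pileup of 75.5 and a median −log10 p of 43.4. Other genes showed the same order, with medians of 28 and 12.2 when control only and of 58 and 34.8 when kept. Among the 2965 other control-only genes, 1679 fell in the lowest bin of control −log10 p and 952 in the next. Of the 11 control-only members, 10 fell in this lowest pair of bins, where 17 of the 55 members lay. The exception was Dnajc12, known in human as a co-chaperone of phenylalanine hydroxylase, with a pileup of 48 and a −log10 p of 25.8. The other genes of the Dnajc family were Dnajc9 (39), which in human cells is known as a histone chaperone, the ER reductase Dnajc10 (36), Dnajc19 (35) and Dnajc15 (28) of the mitochondrial import motor, Dnajc24 (29), which acts in diphthamide synthesis, and Dnajc28 (27), each with its control pileup in brackets. Dnajc8, with a control pileup of 34, was kept, so the order by pileup was not strict. A region missing from a list was below the authors' threshold, which is not the same as closed chromatin.

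Lowered pileup was shared by all kept members and was of the size seen in other genes. The median log2 ratio of H1C to control was -0.88 over the 44 kept genes (quartiles -1.04 and -0.75), against -0.85 over 7244 other kept genes and -0.87 over other genes weighted to the members' bins. All 44 ratios were below 0, where 99.3% of all kept genes were, and the same held before scaling and with the local-background scaling. The 95% interval lay below 0 at 37 members (84.1%) and at 76.6% of all kept genes. The ratio was below -1 at 15 members (34.1%), against 29.7% of all. Set against the median of other genes in the same bin, 22 members lay above and 22 below. A ratio exists only where both lists hold a region, so the 11 control-only genes have none.

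**Figure D4:**
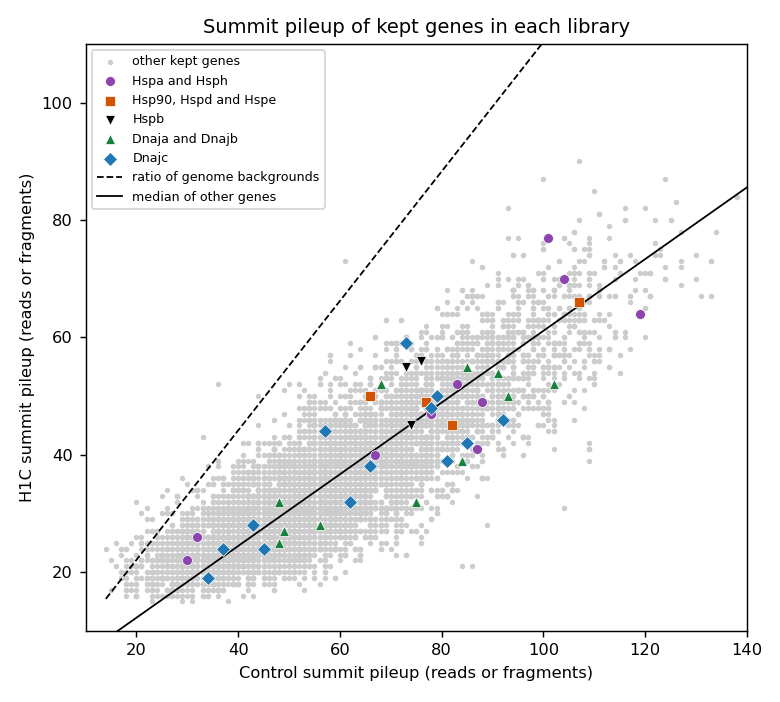
H1C summit pileup against control summit pileup (reads or fragments) for kept chaperone genes, by family, over other kept genes (grey). The dashed line is the ratio of genome backgrounds, 1.10, and the solid line the median of other kept genes. All 44 chaperone points lie below the dashed line and on both sides of the solid line.

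By family, the median log2 ratio was -0.87 for 11 Hspa genes, -0.84 for 3 Hsp90 genes and -0.58 for 3 Hspb genes. It was -1.14 for 3 Dnaja genes, -1.02 for 8 Dnajb genes and -0.94 for 13 Dnajc genes. Over the J-domain families together it was -0.99 (24 genes), against -0.83 over the Hsp families (20 genes). The quartiles overlap between families, and with 1 library per group the order of families has no error between libraries.

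When genes were grouped by compartment, a grouping made after the values had been seen, the cytosolic HSP70 and HSP110 genes were kept at 8 of 8, with Hspa4l without a region, and the cytosolic HSP90 genes at 2 of 2. The ER chaperones and their J-domain partners were kept at 7 of 8, with Dnajc10 in control only and Dnajc1 and Dnajb14 without a region. The mitochondrial genes were kept at 6 of 8, with Dnajc15 and Dnajc19 in control only. Over all genes with a control region 71.0% were kept. Other genes in the same bins of control −log10 p would give 6.56 of the 8 cytosolic HSP70 and HSP110 genes, 1.87 of the 2 cytosolic HSP90 genes, 7.45 of the 8 ER genes and 6.17 of the 8 mitochondrial genes. The median control pileup was 82.5 for the cytosolic HSP70 and HSP110 genes, 85 for the ER genes and 59.5 for the mitochondrial genes.

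Member regions were wider than those of other genes in both libraries. The median width was 503.5 bp in H1C and 694 bp in control, against 398 bp and 541 bp for other genes. Of the 44 kept members, 40 had the narrower region in H1C (90.9%), close to the 91.1% of all kept genes, and the exceptions were Hsph1, Dnajc11, Dnaja3 and Dnajc30. Measured against other genes in the same bin of control −log10 p, 34 of 44 members were wider than the bin median in H1C (77.3%, other genes 49.9%), by a median of 73.5 bp. In control 39 of 55 were wider (70.9%, other genes 49.9%), by a median of 94 bp. Among regions at no other gene end, 20 of 26 members in H1C and 25 of 36 in control exceeded the median of other such genes in their bin.

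Regions of at least 1000 bp were found at 2 members in H1C (4.55%, other genes 0.985%) and at 5 in control (9.09%, other genes 5.32%). Dnaja1 had 1143 bp in H1C and 1312 bp in control, and Hspa5 had 1015 bp in H1C and 1188 bp in control. Hsp90b1 (677 bp in H1C and 1323 bp in control), Dnajb1 (506 bp in H1C and 1116 bp in control) and Hsp90ab1 passed that width in control alone. The narrowest kept region in H1C was that of Dnajc21, 200 bp, against 653 bp in control.

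**Figure D5:**
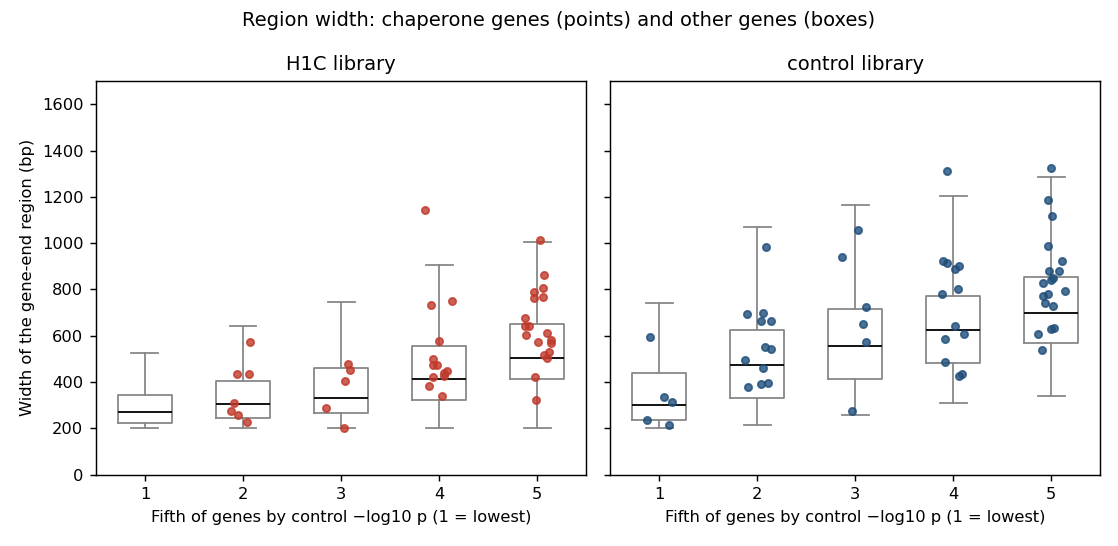
Width of the gene-end region in bp for chaperone genes (points) over other genes (boxes: quartiles and median, whiskers to 1.5 times the interquartile range, points beyond them not drawn) in 5 bins of control −log10 p, for H1C (left) and control (right). In the top pair of bins most points lie above the box median in both libraries.

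Summits lay close to transcription starts and mostly stayed in place. Among kept members with a listed start, the median distance from the control summit to the start was 79 bp, and 35 of 36 lay within 500 bp. Among other kept genes it was 76 bp, with 5311 of 6004 within 500 bp. Among control-only members the median was 72 bp, and 8 of 10 lay within 500 bp, against 87 bp and 1684 of 2285 for other control-only genes. Between the libraries the summit of kept members moved by a median of 23 bp, and by at most 200 bp at 42 of 44 genes. The exceptions were Hsph1 and Dnajc21. Among other kept genes the median move was 25 bp, and 6638 of 7244 moved by at most 200 bp. When the strongest control region of each gene was taken, those farthest from a gene end inside the window were those of Hspbap1 at 497 bp and Dnajc7 at 351 bp, and the nearest outside it lay 1081 bp from Dnajc1, 1304 bp from Dnajc5 and 1808 bp from Dnajb14.

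Fold and −log10 q were also higher for members than for other genes within each list. The median fold of member regions was 5.91 in H1C and 7.59 in control, against 5.25 and 6.81 for other genes. The median −log10 q was 18.8 in H1C and 34.6 in control, against 12.6 and 23.7. For Hspa genes the median fold was 6.14 in H1C and 8.59 in control, and for Dnajc genes 5.64 in H1C and 6.77 in control. These are the authors' values and describe each list.

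The 19 genes without a gene-end region included genes known for use in other tissues and genes with an internal start. Dnajc1, an ER membrane co-chaperone, and Dnajc25 had regions in both lists at a listed start inside the annotated gene, with pileups of 23 in H1C and 51 in control and of 26 in H1C and 53 in control. With listed starts added, 46 of 57 members were kept (80.7%). Dnajc5, the cysteine string protein of secretory vesicles, had a region inside the gene with 30 in H1C and 78 in control. Dnajc18 and Dnajc6, the clathrin-uncoating factor auxilin, had an internal region in control alone. The rest, among them Dnajc5b, Dnajc5g, Dnajc22, the muscle gene Hspb3 and the testis gene Hspb9, had no region within the gene either.

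Kept members had the highest median CpG content of the 3 classes. The median GC content of the listed promoters was 63.6% for kept members, 54.2% for control-only members and 61.2% for members with no region. The median ratio of observed to expected CpG was 0.852, 0.719 and 0.570 in the same classes, against 0.803, 0.653 and 0.274 for other genes. A listed promoter window overlapped an accessible region at 36 of 36 kept members in both libraries and at 7 of 10 control-only members in control. It did so in both libraries at 2 of 14 members with no gene-end region. Any overlap of any listed window of a gene was counted, and kept genes had a region near a gene end by definition. The share of other genes was not computed, so these overlap counts cannot be read as particular to the members. Sharing a region with another gene went with being kept. Of 19 members whose region also lay at another gene's end 18 were kept (94.7%), and of the other 36, 26 (72.2%), while other genes were kept at 80.8% and 67.0%. Beside those named so far, the shared ends were Ttc41 at Hsp90b1, Tbccd1 at Dnajb11, Zfyve19 at Dnajc17 and Tmem198b at Dnajc14. Further ones were Bud23 at Dnajc30, Lrrc42 at Hspb11, Nkiras2 at Dnajc7, Psmc2 at Dnajc2 and Atpif1 at Dnajc8. The members with a shared region also had the higher median control −log10 p, 42.9 against 32.4, and the part of this in the result was not tested.

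The wider chaperone network, given as lists drawn up with earlier results of these data known, was mostly kept. All 24 co-chaperones of HSP90 and HSP70 with a control region were kept, and Bag2 had a region in neither list. Stip1, which bridges HSP70 and HSP90, had a pileup of 67 in H1C and 131 in control, and Ptges3, the HSP90 co-chaperone p23, had 24 in H1C and 63 in control. Hsf1 was kept with 42 in H1C and 76 in control, as was Hsbp1, which binds it, whereas Hsf2, Hsf4 and Hsf5 had no region. The cytosolic chaperonin TRiC and its helper prefoldin were kept at 9 of 13 genes. Cct5, a chaperonin subunit with a control pileup of 61, and the prefoldin genes Pfdn1 (16), Vbp1 (27) and Pfdn5 (31) were in control only.

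ER stress genes were kept at 17 of 19, with the sensor Atf6 (control pileup 33) and the protease gene Mbtps2 (21) in control only. Calr, the ER chaperone calreticulin, had 71 in H1C and 119 in control, and Xbp1, a transcription factor of the unfolded protein response, had 54 in H1C and 79 in control. Mitochondrial import and quality control genes were kept at 17 of 19, with Timm44 of the import motor (40) and Trap1, the mitochondrial HSP90 (45), in control only. All these lists together were kept at 69 of 77 genes (89.6%, interval 80.6 to 95.4), against 71.0% of all genes with a control region. Other genes in the same bins were kept at 86.1%, or 66.3 genes, a share inside that interval. By list, other genes in the same bins would give 20.8 of the 24 co-chaperones and 1.87 of the 2 genes Hsf1 and Hsbp1. They would give 10.1 of the 13 TRiC and prefoldin genes, 17.4 of the 19 ER stress genes and 16.1 of the 19 mitochondrial genes.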

How the data were processed

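ATAC-seq libraries of 1 H1C and 1 control sample were used, grouped by their treatment labels. Trim Galore 0.4.4, Bowtie2 2.2.9, MACS2, Picard and featureCounts were named, with build mm10, per the submitters' processing notes. The sources used here do not give what each tool did, how duplicates were handled or whether reads were shifted to cut sites, all of which bear on summit height and position. The authors deposited a list of regions per library, each with a fold (a ratio of summit to local background), a −log10 p, a −log10 q and a score. The deposited score was not used. Fold and Poisson −log10 p together gave pileup and local background, with whole pileups (relative tolerance 0.0001) for all 13156 H1C and 32005 control regions. The solver was tested on simulated data. The lists give no read totals, so depth is known only through the genome background. Gene ends and promoters came from RefSeq tables of GRCm38.p6, the same assembly as mm10.

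Every control-only gene and every gene without a region is named, and of kept genes those with the highest −log10 p and the highest and lowest ratio of each family, a fixed set of well-known chaperones, and the remaining kept genes in brief. The members, gene lists and markers were chosen with earlier results of these data known, and some listed genes are not reported here. Intervals (95%) cover counting error only, and amplified fragments are not independent molecules. Alternatives covered windows, thresholds, overlap rules, bins and depth scaling. The software was Python 3.11.15 with scipy 1.17.1, numpy 2.4.6, matplotlib 3.10.9 and pandas 2.3.3.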

Additional observations from a re-analysis of the deposited data

How the results depend on the processing

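No paired analysis was possible because there was 1 library per group. The results were recomputed under 40 alternatives, of which 6 were chosen after seeing the data. The value stayed inside its interval or quartiles, or for counts within 1.5 times, in 34 of them, moved in 6 and reversed in 0, and the cause of a move was not tested. Members kept came to 61.8% when regions had to overlap reciprocally by 50%. The share of other genes was not computed under that rule, so this value cannot be set against the shares of other genes given here. Other genes in the members' bins were kept at 79.1% with 10 bins, 77.9% with 5 bins of control fold and 80.8% with listed starts added, where the members were kept at 80.7%. The median log2 ratio of the members was -0.74 without depth scaling and -0.54 scaled by the local background, which is counted partly over the regions. These scalings shift all genes by 0.14 and 0.34. The motif shares had no alternative. With pileups of 14 in H1C and 12 in control as the lowest called, a lost weak region cannot be told from one just under the threshold.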

Other observations

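Away from gene ends, regions inside the gene were found at 5 of 74 members in H1C (7 regions) and at 16 of 74 in control (26 regions), which is 6.76% and 21.6% of members. Over all protein-coding genes the shares were 11.8% in H1C and 26.2% in control. RefSeq lists 16 pseudogenes named for members, such as Dnaja1-ps, and 0 of them had a region in either library. The share of all pseudogenes with a region was not computed, so this count cannot be read as particular to them. Dnajc3 and Dnajc7 had a second, weaker control region at the far end of the gene, with pileups of 27 and 25, and no H1C region there.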
